A study of Mus musculus with 3 samples.

Results

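The heat shock proteins and chaperonins described here are 38 listed genes that encode the main folding machinery of the cytosol, the endoplasmic reticulum (ER) and the mitochondria. Of these, 37 had a row in the feature table of 31053 genes, and all 37 had at least 10 unique molecular identifiers (UMIs, 1 per captured mRNA molecule) over the 3 libraries, as did 13898 genes in all. The remaining gene, Cct6a, was not analysed here. The 37 members comprised 24 cytosolic, 8 ER and 5 mitochondrial ones. Membership was set by name and not by a measured ratio, but the list was chosen with earlier results of these data known.

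Chaperones bind unfolded or newly made polypeptides and release them once folded, HSP70 proteins together with J-domain partners and HSP90 proteins together with co-chaperones such as STIP1. Chaperonins are barrels that enclose a substrate, CCT (also called TRiC) in the cytosol, which folds actin and tubulin, and HSP60 (Hspd1) with its lid HSP10 (Hspe1) in the mitochondrial matrix. Cytosolic heat shock genes are induced through heat shock factor HSF1, and ER chaperones through the unfolded protein response. T cells enlarge and make much more protein when they leave quiescence.

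The study sequenced single CD4+ T cells from the spleens of C57BL/6 mice, which its methods describe as 5- to 10-week-old males. The unstimulated WT library (none, 0 h) came from Ift20 f/f mice and was given DPBS only. No unstimulated library was kept for 24 h, so the antibodies and the time in culture cannot be told apart. The stimulated WT library (CD3/CD28) came from Ift20 f/f cells kept for 24 h with 1 µg/mL anti-CD3 and 1 µg/mL anti-CD28 antibodies, and the IFT20-KO library from Ift20 f/f CD4 cre cells stimulated in the same way. All mice carried the floxed Ift20 allele, the WT mice without Cre, and the CD4 promoter drives Cre during thymic development, before CD4 and CD8 T cells part. Naïve cells were enriched with magnetic beads, and live CD3+CD4+ cells were sorted. With 1 library per condition there was no replicate, so the intervals below are 95% intervals that cover counting error only, no p-value is given, and a member is counted as past the fold by its ratio alone.

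Cells were kept if they had over 200 genes and less than 15% of their UMIs in mitochondrial genes. In the order unstimulated, stimulated WT, IFT20-KO, this gave 8031, 9903 and 13920 cells with 37133949, 116979076 and 106435143 UMIs, the order also used for triplets of values below. The median number of UMIs per cell was 4627, 12167 and 5014.5. Ift20 stood at 64.4, 76.0 and 6.61 UMIs per 1000000 UMIs of the library (counts per 1000000, CPM), so the knocked-out gene was low in the library labelled as its knockout. CD4 T cell markers summed to 3575 to 4236 CPM. Naïve markers summed to 3830, 982 and 1129 CPM and activation markers to 244, 1427 and 1306 CPM. B cell, NK, plasma cell and erythroid markers each summed to at most 3.31 CPM, CD8 T cell markers to 9.16 to 28.7 CPM, and the myeloid list to 76.4 to 80.4 CPM, nearly all of it Cst3. Between 114 and 197 cell barcodes were shared by a pair of libraries, at most 1.99% of the smaller one.

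Short stretches of promoter sequence are shown first, since they hold the elements by which the ER and the heat-inducible members are usually recognised. The sequences are from RefSeq (GRCm38.p6), with 250 bases before each annotated start searched on both strands. A window was found for 31 members. The ER stress response element, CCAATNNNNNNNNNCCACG, was present before 5 of the 8 ER members and before none of the other members with a window, compared to 0.113% of the 32851 mouse windows. The element is given in capitals with 5 bases on either side, each read in the direction that starts with CCAAT, for the 5 ER genes that carry it.
Hspa5, chr2:34772020-34772048, plus strand: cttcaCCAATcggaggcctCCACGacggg
Hsp90b1, chr10:86705633-86705661, minus strand: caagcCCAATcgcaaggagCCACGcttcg
Hsp90b1, chr10:86705528-86705556, plus strand: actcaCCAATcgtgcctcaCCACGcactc
Calr, chr8:84847070-84847098, plus strand: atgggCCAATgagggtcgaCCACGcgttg
Canx, chr11:50325795-50325823, minus strand: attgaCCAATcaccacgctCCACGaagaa
Pdia6, chr12:17266486-17266514, plus strand: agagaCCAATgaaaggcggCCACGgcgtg

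The heat shock element was searched as 3 alternating units, GAANNTTCNNGAA or TTCNNGAANNTTC. It was present before 3 members with a window (Hspd1, Hspe1 and Dnajb6) and in 0.466% of all windows. Hspd1 and Hspe1 are neighbours on chromosome 1 that point away from each other, with 215 bases between the Hspe1 start (base 55088148) and 1 of the 2 annotated Hspd1 starts (55087932), so both windows hold the same element. The other annotated Hspd1 start (55088243) lies past the Hspe1 start. The capitals mark a run of 4 alternating units, which holds both spellings of the 3-unit element, overlapping each other. It is shown because these were the mitochondrial members with the highest ratios after stimulation.
Hspe1, chr1:55088054-55088081, plus strand: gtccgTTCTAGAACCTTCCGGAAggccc

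No exact match to the 3-unit element was found in the windows of Hspa1a and Hspa1b, whose 250 bases before the start were 98.8% identical. Units that differ from these letters were not searched, so a longer element that holds such units would be missed. A shorter form of 2 units, GAANNTTC or TTCNNGAA, was found in both. It was not particular to them, being found before 11 of the 31 members with a window and in 12.8% of all windows. The 120 bases before each start are shown, with the 2 units in capitals, because this pair was the furthest below its unstimulated level. These matches are descriptions of the letters and carry no statement on binding.
Hspa1a, chr17:34972157-34972276, minus strand: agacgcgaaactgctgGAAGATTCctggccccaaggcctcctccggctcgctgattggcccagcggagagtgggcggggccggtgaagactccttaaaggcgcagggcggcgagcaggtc
Hspa1b, chr17:34959239-34959358, minus strand: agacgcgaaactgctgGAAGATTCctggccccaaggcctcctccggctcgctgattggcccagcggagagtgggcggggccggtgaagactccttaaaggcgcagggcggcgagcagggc

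The first comparison, stimulated against unstimulated WT cells, asks how chaperone transcripts differ between resting CD4+ T cells and cells 24 h after activation. Together the 37 members took 0.798% of the UMIs of unstimulated cells and 2.27% of those of stimulated cells. The log2 ratio was above 0 for 34 members and below 0 for 3, compared to 46.0% of all genes above 0. It was at least 1 for 22 members, against a background of 18.7% of the 13898 genes, and at most −1 for 3, against 23.7%. The median log2 ratio was 1.89 for mitochondrial, 1.41 for ER and 1.08 for cytosolic members, compared to −0.11 over all genes.

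**Figure D1:**
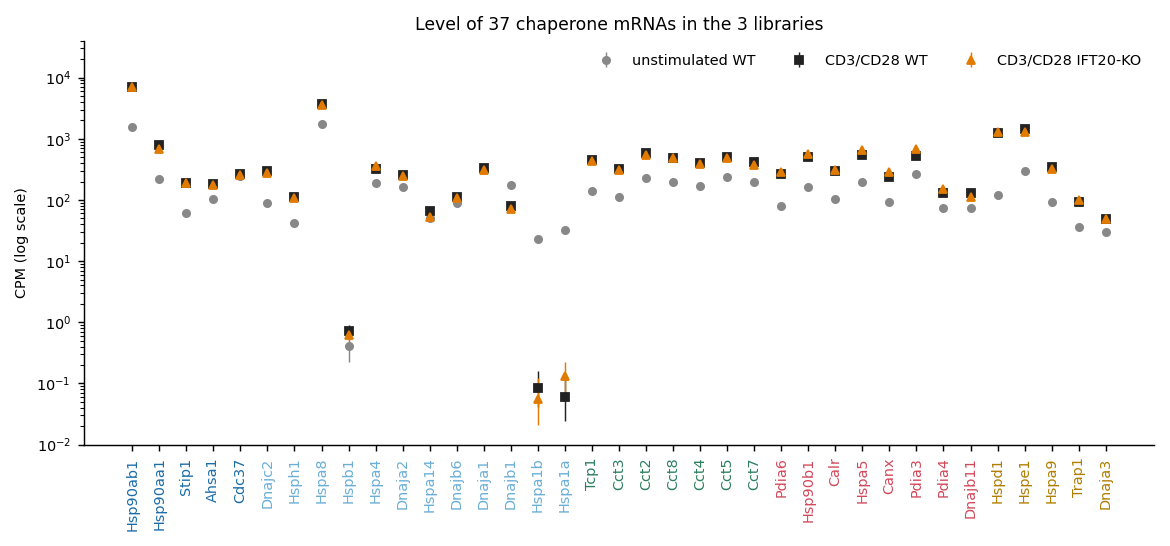
Level of each of the 37 members in CPM (log axis) in unstimulated, stimulated WT and IFT20-KO cells, with 95% counting intervals, names coloured by system and ordered by the stimulation ratio within it. The stimulated libraries lie close together for nearly every member, and Hspa1a and Hspa1b are the only members whose unstimulated level lies over 100 times above both. UMI levels of different genes are not corrected for capture and are not compared with each other.

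**Figure D2:**
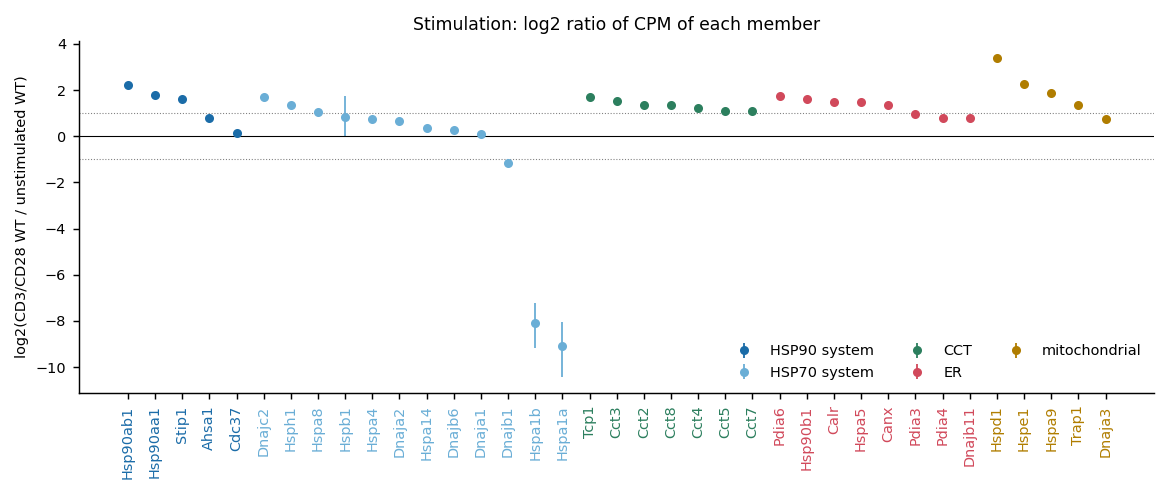
Log2 ratio of stimulated over unstimulated WT cells for each member, with 95% counting intervals, solid line at 0 and dotted lines at 1 and −1. Hspd1 (3.40) is the highest, and Dnajb1 (−1.15), Hspa1b (−8.09) and Hspa1a (−9.10) are the 3 members below −1.

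The mitochondrial chaperonin showed the highest ratios of the mitochondrial members. Hspd1 (HSP60, chr1:55077835-55088243) had 118 CPM in unstimulated, 1254 CPM in stimulated WT and 1275 CPM in IFT20-KO cells, so both stimulated libraries were over 10 times above the unstimulated one. Its log2 ratio for stimulation was 3.40 (3.36 to 3.45), a 10.6-fold difference, which exceeded that of 97.7% of all genes. Hspe1 (HSP10, chr1:55088132-55091307), which closes the HSP60 barrel, had 301, 1446 and 1306 CPM and a log2 ratio of 2.26 (2.24 to 2.29). The pair therefore did not keep its proportion. For every 100 Hspe1 UMIs there were 39.3 Hspd1 UMIs in unstimulated, 86.7 in stimulated WT and 97.6 in IFT20-KO cells. The 2 genes overlap by 112 bases on opposite strands, and processed pseudogenes of both are annotated (5 named for Hspd1, 6 for Hspe1), so some reads may be shared.

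The other mitochondrial members followed in the same direction. Hspa9 (mortalin, the matrix HSP70 that pulls in imported proteins) had 92.9, 343 and 322 CPM, with a log2 ratio for stimulation of 1.89 (1.84 to 1.94). Trap1, the mitochondrial HSP90, had 36.5, 92.4 and 98.0 CPM (log2 ratio 1.34). Dnaja3, a J-domain partner of mortalin, had 29.7, 49.4 and 48.8 CPM (0.74), the lowest of the 5, and shares 10814 annotated bases with Vasn on the same strand. Among 17 other genes of mitochondrial chaperones, import motor and proteases, 9 had a log2 ratio of at least 1 and none of at most −1, with a median of 1.02. The extremes were Atf5 (1.60), a transcription factor of the mitochondrial stress response, and Spg7 (−0.83), a subunit of an inner membrane protease.

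In the HSP90 system the chaperones differed more than some of the co-chaperones. Hsp90ab1, the constitutive form, had 1545 CPM in unstimulated, 7123 CPM in stimulated WT and 7025 CPM in IFT20-KO cells, a log2 ratio for stimulation of 2.21 (2.19 to 2.22). Hsp90aa1, the heat-inducible form, had 223, 782 and 671 CPM (1.81). For every 100 Hsp90ab1 UMIs there were 14.4, 10.98 and 9.56 Hsp90aa1 UMIs. Stip1, which joins HSP70 to HSP90, had 62.1, 191 and 190 CPM (1.62), and Ahsa1, the activator of the HSP90 ATPase, 103, 181 and 172 CPM (0.81). Cdc37, which hands kinases to HSP90, had 243, 266 and 260 CPM, a log2 ratio of 0.13 (0.09 to 0.16). It was −0.47 (−0.57 to −0.36) in cells of 1500 to 6000 UMIs. That range did not match the cells in mitochondrial UMIs. Their median share was 2.60% in unstimulated cells of 1500 to 3000 UMIs and 2.25% in those of 3000 to 6000. In stimulated WT cells of 1500 to 6000 UMIs it was 10.2%. Of 22 other cytosolic co-chaperones, 11 had a log2 ratio of at least 1 and none of at most −1 (median 0.97). They were led by Bag2 (2.98, 25 UMIs in unstimulated cells), Ruvbl1 (1.94) and Ruvbl2 (1.82), the last a pair of ATPases that work with HSP90 in complex assembly, with Unc45a (−0.56) the lowest.

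All 7 CCT subunits analysed had a log2 ratio of at least 1, within a narrow range of 1.09 to 1.69. Tcp1 (CCT1) was the highest, with 141 CPM in unstimulated, 456 CPM in stimulated WT and 438 CPM in IFT20-KO cells. Cct3 (1.52), Cct2 (1.37), Cct8 (1.36) and Cct4 (1.23) lay in between. Cct5 (1.10) and Cct7, which had 195, 413 and 378 CPM (1.09), were the lowest, and the intervals of these neighbours overlapped. In cells of 1500 to 6000 UMIs 2 of the 7 were at 1 or more and the median was 0.63, below the 0.73 of all genes in those cells. The 9 genes of prefoldin, which delivers substrates to CCT, and other CCT co-factors had a median of 0.44, with 2 at 1 or more, Pfdn4 (1.19) and Pfdn1 (1.16), and Pfdn5 the lowest at −0.25.

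The HSP70 system had 3 of 12 members at 1 or more and 3 at −1 or less, not far from the backgrounds of 18.7% and 23.7%, with a median log2 ratio of 0.51. Hspa8, the constitutive HSC70, had 1742 CPM in unstimulated, 3655 CPM in stimulated WT and 3510 CPM in IFT20-KO cells (1.07). Dnajc2, a ribosome-bound J protein, had 90.0, 293 and 276 CPM (1.70), and Hsph1, an HSP110 nucleotide exchange factor, 42.7, 110 and 108 CPM (1.36). Between 0 and 1 were Hspb1 (0.83), Hspa4 (0.74), Dnaja2 (0.68), Hspa14 (0.35), Dnajb6 (0.29) and Dnaja1 (0.12), the last at −0.46 in cells of 1500 to 6000 UMIs. Hspb1, a small heat shock protein, rested on 15, 84 and 67 UMIs, so its interval ran from 0.03 to 1.73. Hspa14 shares 8264 annotated bases with another gene on the same strand, and its counts depend on how reads there were assigned.

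Hspa1a and Hspa1b, the stress-inducible HSP70 pair, were the only members nearly confined to unstimulated cells. Hspa1a (chr17:34969190-34972156) had 1218 UMIs (32.8 CPM) in unstimulated, 7 UMIs (0.060 CPM) in stimulated WT and 14 UMIs (0.13 CPM) in IFT20-KO cells. Hspa1b (chr17:34956436-34959238) had 867, 10 and 6 UMIs, or 23.3, 0.085 and 0.056 CPM. The log2 ratios for stimulation were −9.10 (−10.42 to −8.05) and −8.09 (−9.16 to −7.21), and no gene of the 13898 had a lower ratio than Hspa1a. Because the genes are near copies, their counts depend on how reads that match both were assigned. Hspa1a also overlaps another annotated gene on the opposite strand by 2225 bases. Their J-domain partner Dnajb1, also heat-inducible, had 174, 78.6 and 72.2 CPM (−1.15, −1.19 to −1.10), a direction that turned (0.21) when UMIs were taken per cell without scaling by depth. Dnajb1 UMIs per 100 Hspa8 UMIs were 9.99, 2.15 and 2.06.

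The 6 members listed as heat-inducible HSF1 targets thus did not share a direction. Hspa1a, Hspa1b and Dnajb1 were at −1 or less, Hsp90aa1 and Hsph1 at 1 or more and Hspb1 in between. Hsf1 itself had 47.9 CPM in unstimulated, 59.9 CPM in stimulated WT and 61.5 CPM in IFT20-KO cells (log2 ratio 0.32), and Hsf2 4.77, 8.21 and 10.0 CPM (0.78). Bag3, an HSP70 co-chaperone and HSF1 target, had 9.78, 3.45 and 3.58 CPM (−1.50), the only gene of the 6 heat shock factor and regulator genes analysed at −1 or less.

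Free RNA in the droplets was not estimated, so a UMI of Hspa1a or Hspa1b does not show that the cell expressed it. In the unstimulated library at least 1 UMI of either gene was seen in 1450 of 8031 cells (18.1%), 8 cells held 5 or more, and the highest number in a cell was 8. The share was 0.162% of stimulated WT cells and 0.129% of IFT20-KO cells, although the median stimulated WT cell had more UMIs. Among unstimulated cells of 3000 to 6000 UMIs, those with 2 or more of these UMIs (250 cells) had 190 CPM of Dnajb1 (166 to 217) and 42.6 CPM of Hsph1 (31.7 to 56.0). Cells with none (4424 cells) had 174 CPM of Dnajb1 (168 to 180) and 37.7 CPM of Hsph1 (35.1 to 40.5), so the intervals overlapped for both. Cells with 1 such UMI (655 cells) had 344 CPM of Dnaja1 (323 to 365), above the 310 CPM (302 to 318) of cells with none, while cells with 2 or more had 313 CPM (282 to 346). Hsp90ab1 stood at 1584 CPM (1513.5 to 1656.9) in cells with 2 or more, above the 1476.6 CPM (1459.9 to 1493.5) of cells with none. Its variance over unstimulated cells thinned to 3000 UMIs was 1.69 times its mean, a spread between cells that these counting intervals leave out. Between these sets the intervals of Hsp90aa1, Hspa8, Hspd1, Hspe1 and Hspa5 overlapped. Hspa1a was higher in unstimulated barcodes under 1500 UMIs (201 CPM, 172 to 234) than in the deeper bands (27.8 to 32.7 CPM). This was not particular to Hspa1a. In the same barcodes Hsph1 (148 against 38.8 to 58.4 CPM) and Hspa5 (553 against 181 to 214 CPM) were higher too. Hspa8 (872 against 1734.5 to 1926.9 CPM) was lower there. These 825 barcodes had a median of 10.3% mitochondrial UMIs, and the part of this in their level was not tested.

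All 8 ER members had higher levels in stimulated cells, as did 46.0% of all genes. Pdia6, a protein disulfide isomerase, had 79.2 CPM in unstimulated, 266 CPM in stimulated WT and 290 CPM in IFT20-KO cells (log2 ratio for stimulation 1.75). Hsp90b1 (GRP94, the ER HSP90, chr10:86690209-86705509) had 161, 497 and 574 CPM (1.62), and Hspa5 (BiP, the ER HSP70, chr2:34771970-34777547) 193, 536 and 660 CPM (1.47, 1.44 to 1.51). Calr and Canx, the lectin chaperones of glycoproteins, had log2 ratios of 1.50 and 1.35. Pdia3, the disulfide isomerase that works with them, had 270, 521 and 678 CPM (0.95), and Pdia4 (0.81) and Dnajb11 (0.79), a J-domain partner of BiP, were the lowest. The 5 members at 1 or more over all kept cells were the 5 that carry the ER stress response element shown above, with Pdia3 just under 1. In cells of 1500 to 6000 UMIs all 8 were at 1 or more, those without the element included (Pdia3 2.81, Pdia4 2.55 and Dnajb11 1.25). The stimulated cells of that range were richer in mitochondrial UMIs than the unstimulated ones, and the part of this was not tested. Of all genes, 41.2% were at 1 or more in those cells, with a median of 0.73.

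Other genes of ER folding and the unfolded protein response were mixed, with 8 of 27 at 1 or more, 2 at −1 or less and a median of 0.27. Sdf2l1, a BiP co-factor, had 20.7, 134 and 119 CPM (2.70), and the sensor Atf6 3.45, 14.5 and 18.1 CPM (2.07). Pdia5 had 0 UMIs in unstimulated and 141 in stimulated WT cells. With the 0 set to a floor of 3 counts the ratio was 14.9-fold (log2 ratio 3.90, 2.32 to 6.19). Xbp1 had 42.7, 115 and 118 CPM (1.43). Lowest were Ero1lb (−2.28), an oxidase, and Eif2ak3 (−1.27), the PERK sensor, and Ddit3, which encodes CHOP, had 780 UMIs in unstimulated and 1453 in stimulated WT cells (−0.76).

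In stimulated cells the share of UMIs in ER members was higher in cells of low depth, while that of the other systems was lower. In stimulated cells of 1500 to 6000 UMIs, called shallow below and merged from a pair of depth bands after their values were seen, ER members took 0.884% of the UMIs in WT (1922 cells) and 0.647% in IFT20-KO (7103 cells). In cells of at least 6000 UMIs, called deep, they took 0.233% in both libraries (7417 and 6801 cells). Systems outside the ER lay the other way, with for example 0.480% against 0.872% for the HSP90 system in WT. In unstimulated cells the ER share was 0.102% to 0.120% in every band between 1500 and 24000 UMIs and 0.165% below 1500. The shallow cells were richer in mitochondrial UMIs, with medians of 10.2% against 1.25% in WT and 5.55% against 1.06% in IFT20-KO. A high mitochondrial share is commonly taken as a sign of a damaged cell. Whether these barcodes held intact cells, and whether this set the ER level, was not tested.

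**Figure D3:**
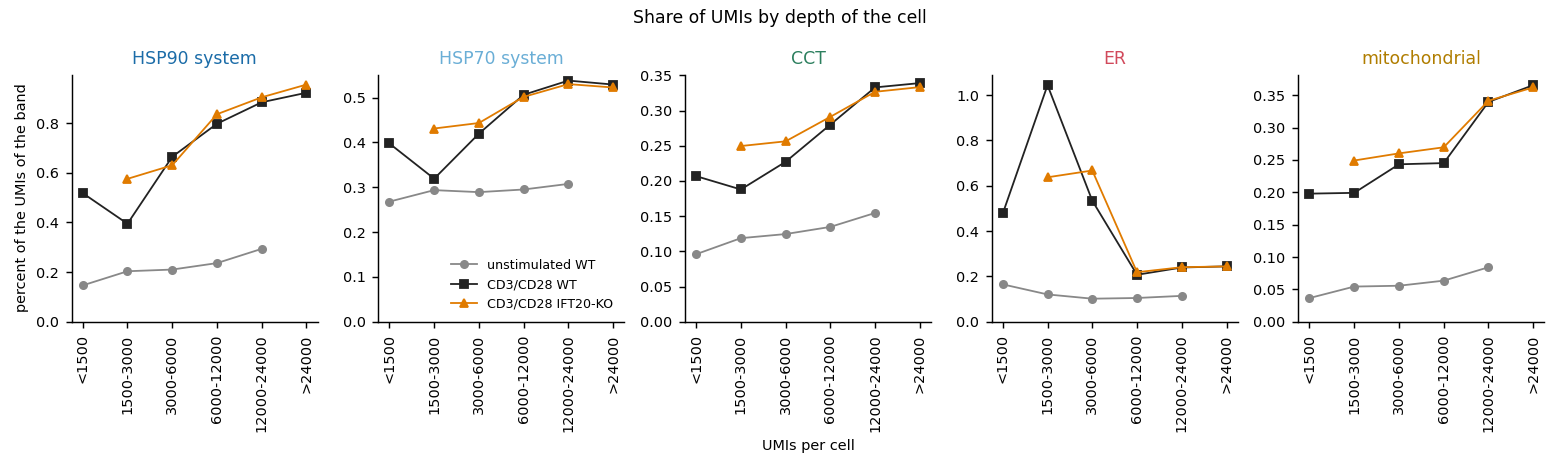
Percent of all UMIs of a depth band taken by the members of each system (vertical axis, from 0) against UMIs per cell, for the 3 libraries, without bands of under 20 cells. The ER members of both stimulated libraries peak between 1500 and 6000 UMIs (1.04% in WT at 1500 to 3000) and lie at 0.207% to 0.244% above 6000, where the other systems are at their highest.

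The contrast was seen gene by gene. Hspa5 had 2494 CPM in shallow and 450 CPM in deep stimulated WT cells, and 1697 and 440 CPM in IFT20-KO cells, log2 ratios of 2.47 (2.44 to 2.50) and 1.95 (1.93 to 1.97). The ratio of shallow to deep cells was above 0 for all 8 ER members in both libraries, and at least 1 for 6 of 8 in WT and 5 of 8 in IFT20-KO. Over the 10642 genes with at least 200 UMIs, 38.3% and 33.9% reached 1. Over the 2764 genes with at least 50 CPM in stimulated WT cells, which is a level that all ER members exceeded, these shares were 12.7% and 9.66%. Medians over the ER members were 1.92 and 1.49, compared to −0.31 and −0.14 over those 2764 genes. Below 1 in both libraries were Dnajb11 (0.46 and 0.27) and Calr, which fell just short of 1 in WT and was at 0.75 in IFT20-KO.

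Counted per cell, ER transcripts differed less between shallow and deep cells than all transcripts did. A deep stimulated WT cell held 6.20 times the UMIs of a shallow one on average. It held 1.12 times the Hspa5 UMIs (6.78 against 6.06), 1.51 times the Pdia3 UMIs, 1.50 times the Hsp90b1 UMIs and 1.64 times the ER UMIs summed. For the HSP90 system the factor was 11.3, for the HSP70 system 9.37, for CCT 9.99 and for mitochondrial members 9.41. In IFT20-KO cells the factor for all UMIs was 4.91, for the ER members 1.76 and for the other systems 5.86 to 7.29.

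**Figure D4:**
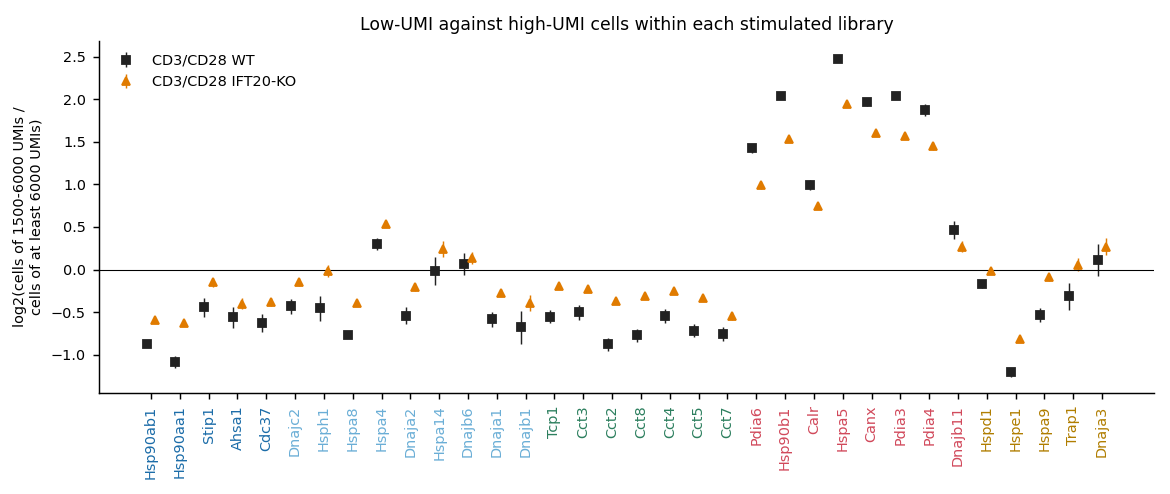
Log2 ratio of stimulated cells of 1500 to 6000 UMIs over cells of at least 6000 UMIs within the WT and the IFT20-KO library, with 95% counting intervals, for 34 members (Hspa1a, Hspa1b and Hspb1, under 100 UMIs in each stimulated library, are left out). The 8 ER members are above 0 in both libraries, led by Hspa5 (2.47 and 1.95), and Hspe1 (−1.20 and −0.82) and Hsp90aa1 (−1.09 and −0.63) are the lowest.

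Members outside the ER were mostly lower in shallow cells, with a median log2 ratio of −0.56 in WT and −0.27 in IFT20-KO for the 21 cytosolic members with at least 200 UMIs in the stimulated libraries together, of which 19 and 18 were below 0. All 7 CCT subunits and all 5 members of the HSP90 system were below 0 in both libraries. Of the 10414 genes with at least 200 UMIs in the stimulated libraries, 68.9% in WT and 72.4% in IFT20-KO were above 0. Of the 2764 genes with at least 50 CPM in stimulated WT cells, however, 63.2% and 58.8% were below 0, as most of these members were. Hspa4, an HSP110 exchange factor, was above 0 in both (0.30 and 0.53). The mitochondrial pair parted again, with Hspd1 at −0.17 and −0.02 and Hspe1 at −1.20 and −0.82. Hspd1 stood at 1118 CPM in shallow and 1262 CPM in deep WT cells, and Hspe1 at 644 and 1484 CPM.

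Other ER genes were compared in the same way. Of 27 other ER chaperone, folding enzyme and unfolded protein response genes, 25 in WT and 24 in IFT20-KO were above 0, compared to 69.3% and 72.7% of all genes with at least 200 UMIs. By a log2 ratio of at least 1, 16 and 15 were higher, against the backgrounds of 38.3% and 33.9% given above. Uggt1, the glycoprotein folding sensor, had 157 against 20.6 CPM in WT (2.94), and Atf6 74.3 against 11.7 CPM (2.67). The lowest in WT were Atf4 (−0.83) and Sdf2l1 (−0.24). Across the 35 ER genes, the ratio in WT cells correlated with log2 of the longest annotated coding length (Pearson's r = 0.80, Spearman's rho = 0.84), and in IFT20-KO cells likewise (0.82 and 0.82). The correlation was 0.50 over 10176 genes with a coding length and −0.019 over these 21 cytosolic members in WT. These are descriptions across genes of 1 library, which share its depth and are not independent replicates.

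The shallow cells were not uniform. Those with at least 5% mitochondrial UMIs (1635 in WT, 4141 in IFT20-KO) had an ER share of 1.11% and 0.754%, and those under 5% (287 and 2962) of 0.225% and 0.507%. Hspa5 stood at 3192 and 456 CPM in these sets of WT cells and at 2020 and 1273 CPM in those of IFT20-KO cells. In WT the ER level of mitochondria-poor shallow cells was thus near that of deep cells, and in IFT20-KO cells it was above it. The median depth of the mitochondria-poor cells also differed, with 4502 UMIs in WT and 2441 in IFT20-KO.

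Hspa5, Hsp90b1 and Pdia3 also varied more between stimulated cells when cells of 3000 to 6000 UMIs (339 in WT, 1602 in IFT20-KO) were included. With every cell thinned to 3000 UMIs, the variance of Hspa5 UMIs over cells was 1.17 times its mean in unstimulated, 3.01 times in stimulated WT and 4.88 times in IFT20-KO cells, where a Poisson spread gives a ratio near 1. Among stimulated cells of at least 6000 UMIs, thinned likewise, it was 1.45 in WT and 1.44 in IFT20-KO. Hsp90b1 (2.11 and 3.24 over all thinned cells, 1.34 and 1.31 over deep ones) and Pdia3 (1.88 and 2.92, then 1.19 and 1.22) behaved alike. For Hspa8 the ratio was 2.43 and 2.17 over all and 2.34 and 2.10 over deep cells. It thus hardly depended on the cells of 3000 to 6000 UMIs. Thinning left out 1335, 2147 and 5517 cells with under 3000 UMIs in the 3 libraries.

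The second comparison, IFT20-KO against WT, both stimulated, asks what the loss of IFT20 leaves different in activated cells. The differences were small. Only Hspa1a (log2 ratio 1.14, −0.27 to 2.69, from 7 and 14 UMIs) was at 0.5 or more and only Hspa1b (−0.60, −2.34 to 1.00, from 10 and 6 UMIs) at −0.5 or less, and both intervals held 0. Over all genes, 17.8% were at 0.5 or more and 4.64% at −0.5 or less, with a median of 0.14. The median was 0.21 for ER, −0.02 for mitochondrial and −0.07 for cytosolic members.

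Over all kept cells 7 of the 8 ER members were above 0 in IFT20-KO, against 68.1% of all genes, and 5 of the 8 were above the median of all genes. Pdia3 had 521 CPM in WT and 678 CPM in IFT20-KO cells (0.38, 0.36 to 0.40), Hspa5 536 and 660 CPM (0.30, 0.28 to 0.32) and Canx 234 and 287 CPM (0.29). Dnajb11 was the exception among the 8, with 129 and 112 CPM (−0.20). Outside the ER, 4 of 29 members were above 0, among them Hspa4 (0.19, 0.17 to 0.21) and Trap1 (0.08). Of 24 cytosolic members, 22 were below 0, the lowest apart from Hspa1b being Hspa14 (−0.33, −0.38 to −0.28) and Hsp90aa1 (−0.22). All 7 CCT subunits lay between −0.13 and −0.02, and Hspd1 (0.02) and Hspe1 (−0.15) lay near 0.

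The direction of these ER differences depended on which cells were compared. Shallow cells of 1500 to 6000 UMIs made up 51.0% of the IFT20-KO cells and 17.5% of their UMIs, compared to 19.4% of the WT cells and 3.99% of their UMIs. The lowest depth of a barcode differed, with 709 UMIs in stimulated WT and 1493 in IFT20-KO. Under 1500 UMIs there were 564 kept WT and 16 kept IFT20-KO cells, which limits the comparison of these shares and of all kept cells. In cells of at least 6000 UMIs the median log2 ratio of the ER members was −0.02, with Hspa5 at −0.03 (−0.05 to −0.01), Pdia3 at 0.13 (0.11 to 0.15) and Canx at 0.02 (−0.01 to 0.05). In cells of 1500 to 6000 UMIs the ER median was −0.43 and all 8 members were below 0, Hspa5 at −0.56 (−0.59 to −0.52). Over all genes in cells of that range the median was −0.055. By a log2 ratio of −0.5 or less, 2 of the 8 ER members were lower, against 19.6% of all genes there. The narrower bands within that range went opposite ways. At 1500 to 3000 UMIs the ER share was 1.04% in WT (1583 cells) and 0.637% in IFT20-KO (5501 cells), and at 3000 to 6000 UMIs it was 0.534% (339 cells) and 0.667% (1602 cells), with an ER median log2 ratio of 0.31. The median share of mitochondrial UMIs differed in the same order, 10.6% and 5.74% in the lower and 2.10% and 4.25% in the upper band, and its part in the ER level was not tested. The cytosolic median turned as well, from −0.07 over all cells to 0.25 in shallow cells, with −0.04 in deep cells.

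**Figure D5:**
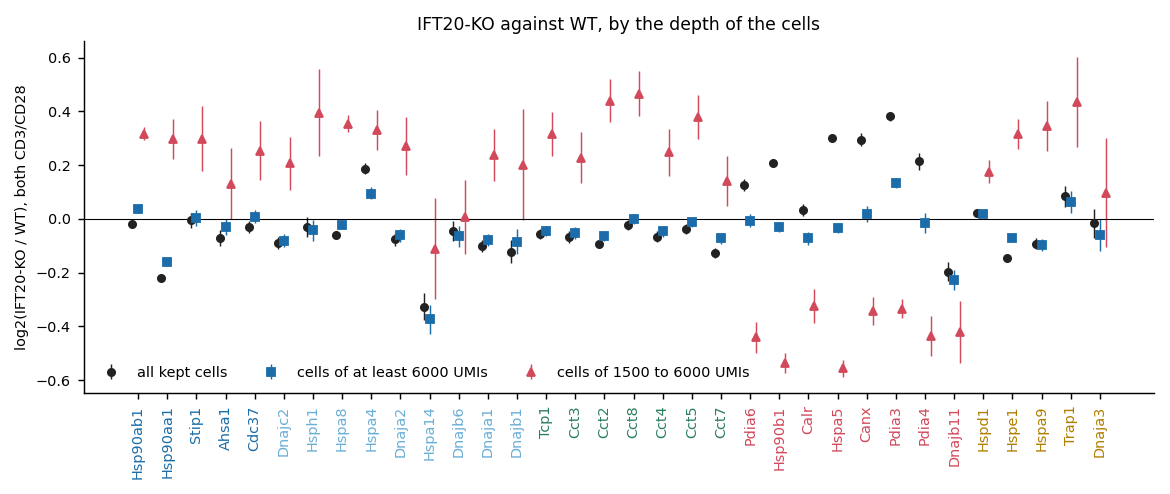
Log2 ratio of IFT20-KO over WT cells, both stimulated, for 34 members (Hspa1a, Hspa1b and Hspb1 left out), over all kept cells, cells of at least 6000 UMIs and cells of 1500 to 6000 UMIs, with 95% counting intervals. 7 of 8 ER members are above 0 over all cells, and their medians are near 0 in deep cells (−0.02) and below 0 in shallow cells (−0.43), while Dnajb11 and Hspa14 are below 0 in all 3 sets.

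Some members kept 1 direction over all, deep and shallow cells. Hspa4, for example, was higher in IFT20-KO over all (0.19), deep (0.09) and shallow cells (0.33), and Trap1 likewise (0.08, 0.06 and 0.43). Dnajb11 was lower in all 3 (−0.20, −0.23 and −0.42). Hspa14 was lower over all (−0.33) and deep cells (−0.37), and its interval in shallow cells held 0 (−0.11, −0.30 to 0.08). Hsp90aa1 was lower in deep cells (−0.16) and higher in shallow ones (0.30). In UMIs per cell without scaling, 30 of 37 members were at −0.5 or less, with the median of all genes at −0.49. An IFT20-KO cell held fewer UMIs on average (7646 against 11812), which lowers every ratio in this setting.

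Of 27 other ER genes, 21 were above 0 in IFT20-KO over all kept cells, against 68.1% of all genes, and 5 were at 0.5 or more, near the background of 17.8%. The highest were Eif2ak3 (0.76), Uggt1 (0.62) and Dnajc10 (0.56), and the lowest was Atf4 (−0.27). None of the 27 was at 0.5 or more within deep or within shallow cells, where 10 and 4 were above 0. The median of all genes was 0.037 in deep and −0.055 in shallow cells. Of all genes, 8.61% in deep and 8.12% in shallow cells were at 0.5 or more. At −0.5 or less were 0 of the 27 in deep and 2 in shallow cells, against 6.43% and 19.6% of all genes. In deep cells Eif2ak3 was at 0.24, Uggt1 at 0.11 and Dnajc10 at 0.19, and in shallow cells Eif2ak3 had 21.4 CPM in both libraries, Uggt1 was at −0.27 and Dnajc10 at 0.04. Hspb11, which despite its name encodes the intraflagellar transport protein IFT25, had 33.6 CPM in unstimulated, 25.5 CPM in stimulated WT and 26.9 CPM in IFT20-KO cells, a log2 ratio of −0.40 for stimulation and 0.08 (0.00 to 0.15) for IFT20-KO.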

How the data were processed

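Single-cell libraries (1 per condition) were re-analysed from deposited UMI counts, which the authors made with Cell Ranger (version 3.1.0 per the file headers, build mm10 per the labels) and did not normalize. The labels name a 5′ kit and the study's methods a 3′ kit. Cells were filtered as stated in the results, and no doublet caller was run. UMIs were summed over kept cells and scaled to 1000000. Intervals (95%) are exact Poisson for CPM and exact binomial for ratios, and a library with 0 UMIs of a gene was set to 3 counts for its ratio. Folds were a log2 ratio of 1 (stimulation) and 0.5 (IFT20-KO). Members and gene lists were chosen with earlier results of these data known. All members are named, and of other lists the 3 highest and 3 lowest ratios of each comparison could be, besides Hspb11, Hsf1, Hsf2, Xbp1, Ddit3 and Bag3. Coding lengths and positions are from GENCODE M21. The ratio script was tested on simulated counts. Python 3.11.15, numpy 2.4.6, scipy 1.17.1, pandas 2.3.3 and matplotlib 3.10.9 were used. Alternatives changed the scaling, the filter on cells, their depth (by range or thinning to 1400 UMIs), the average and the minimum of UMIs per gene.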

Additional observations from a re-analysis of the deposited data

How the results depend on the processing

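No paired analysis was possible because each condition had 1 library, and for the same reason no library could be left out. Cells of 1500 to 6000 UMIs, and the minimum of 200 UMIs in the stimulated libraries, were added after seeing the data. For stimulation, each median stayed above 0, but the cytosolic median lay 0.12 above that of all genes in cells of 3000 to 6000 UMIs and −0.22 from it in those of 1500 to 6000, against 1.19 as reported. The cytosolic median (1.08), the ER median (1.41) and the mitochondrial median (1.89) were 1.25, 1.58 and 2.05 with median-ratio scaling, 2.43, 2.77 and 3.24 in UMIs per kept cell, 0.99, 1.80 and 1.75 as the mean of per-cell shares, 0.97, 1.30 and 1.77 without ribosomal protein and mitochondrial genes in the total, and 0.95, 1.77 and 1.75 after thinning to 1400 UMIs. They were 0.70, 2.30 and 1.45 in cells of 3000 to 6000 UMIs, 0.50, 2.95 and 1.17 in those of 1500 to 6000, and 1.02, 1.19 and 1.81 in those of at least 6000. The ER median was 1.31 in cells of over 1000 genes and under 10% mitochondrial UMIs, and means in place of medians were 0.20 (cytosolic) and 1.28 (ER). In UMIs per kept cell, where the median of all genes was 1.24, 34 members were at 1 or more in place of 22, and Dnajb1 turned to 0.21. For IFT20-KO, the cytosolic (−0.07), ER (0.21) and mitochondrial (−0.02) medians were −0.24, 0.04 and −0.19 with median-ratio scaling, −0.69, −0.42 and −0.64 in UMIs per kept cell, 0.083, 0.31 and 0.30 in cells of 3000 to 6000 UMIs, and 0.25, −0.43 and 0.32 in those of 1500 to 6000. The ER median was −0.023 in cells of at least 6000 UMIs, 0.16 as the mean of per-cell shares, 0.17 after thinning, 0.31 in cells of over 1000 genes and under 10% mitochondrial UMIs, and 0.17 as a mean. The mitochondrial median was 0.048 as the mean of per-cell shares and 0.078 after thinning. In place of 1 member at 0.5 or more there were 2 in cells of 3000 to 6000 UMIs and 2 in those of at least 6000, and 0 in those of 1500 to 6000 and after thinning. Of all genes, 8.61% were at 0.5 or more in cells of at least 6000 UMIs and 8.12% in those of 1500 to 6000. The 2 members in cells of at least 6000 UMIs were Hspa1a (7 UMIs in WT and 11 in IFT20-KO) and Hspa1b (3 and 4). In place of 1 at −0.5 or less there were 30 in UMIs per kept cell, where the median of all genes was −0.49. There were 3 in cells of 3000 to 6000 UMIs, all from few UMIs in WT and IFT20-KO. These were Hspa1a (0 and 1, so set by the floor of 3 counts), Hspa1b (1 and 1) and Hspb1 (4 and 1). No share of all genes is given for that range, here or for the 2 members at 0.5 or more. In cells of 1500 to 6000 UMIs there were 5 of 37, and 19.6% of all genes were at −0.5 or less. There were 0 in cells of at least 6000 UMIs, against 6.43% of all genes, and 0 in those of over 1000 genes and under 10% mitochondrial UMIs. Of the 5, Hspa1a had 0 UMIs in WT and 3 in IFT20-KO cells, so its ratio there rested on the floor of 3 counts. UMIs per kept cell shift every ratio by 1.35 (stimulation) and −0.63 (IFT20-KO), the log2 ratio of mean UMIs per cell, and the cause of the other differences was not tested. Of the 37 IFT20-KO ratios, 30 lay on the other side of 0 in cells of 1500 to 6000 UMIs, 17 in those of 3000 to 6000 and 9 in those of at least 6000. Hspa1a was among the 30 only through the floor. Over all kept cells and in those of at least 6000 UMIs, Hspa1a, Hspa1b and Hspb1 could not be compared between stimulated libraries, as their intervals held 0.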

Other observations

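The other HSP70, HSP110, small heat shock and J-domain genes had a median log2 ratio of −0.47 for stimulation over the 14 analysed. Hspa4l, an HSP110 relative of Hspa4, was at 1.72 and Hspa13, an HSP70-like protein of microsomes, at 1.07. Dnajb4, a close relative of Dnajb1, was at −1.03, and Hspa12a at −3.10 from 30 UMIs in unstimulated and 11 in stimulated WT cells. In IFT20-KO cells 11 of the 14 were above 0 over all kept cells, against 68.1% of all genes. Dnajb12, a J protein of the ER membrane, was the highest at 0.65, and was at 0.23 in cells of at least 6000 UMIs and 0.30 in those of 1500 to 6000.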
